A study of Mus musculus with 7 samples.

Results

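The Hox genes of the 4 mammalian clusters were followed in kidneys of LBR-null and WT mice. They were taken as every gene row whose symbol consists of Hox, a cluster letter from a to d and a number, which gave 39 of 24328 rows: 11 Hoxa, 10 Hoxb, 9 Hoxc and 9 Hoxd genes. LBR-null mice 4001, 4002 and 4007 were homozygous for the Lbr allele ic-J (genotype Lbric-J/ic-J), a mutation that removes the lamin B receptor, an inner nuclear membrane protein that tethers heterochromatin. Mouse 4009 was their WT littermate (genotype Lbr+/+). All 4 mice were C57BL/6J, 4 weeks old, untreated, and came from a stock recovered from cryopreservation. Poly(A) RNA was sequenced from pulverized whole right kidney, with 2 libraries for each of mice 4001, 4007 and 4009 and 1 library for mouse 4002. The sources used here do not say whether both libraries of a mouse came from separate aliquots. The question was how Hox expression in the kidney compares between the genotypes, with mice as the replicates (3 LBR-null, 1 WT).

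Hox genes encode homeodomain transcription factors that give cells their position along the body axis. Within a cluster the genes lie in the order of their paralog numbers, and low numbers are used toward the head while high numbers are used toward the tail and the distal limb. Adult tissues keep part of this code, and genes outside it are held silent by Polycomb complexes. In the kidney, paralog group 11 genes are jointly required for the metanephros to form, group 10 genes act in its stroma, and Hoxb7 marks the ureteric bud and collecting duct.

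The libraries held 20694016 to 26333284 reads on genes, and 1 read was worth 0.787 to 1.15 normalized counts, the unit of all levels below (reads divided by the size factor of the library). Of the 39 Hox genes, 33 were above 0 in all 7 libraries, and 34 had a mean of at least 5 normalized counts over the 4 mice and were tested. Lbr itself, the mutated gene, averaged 322, 340 and 471 normalized counts in LBR-null mice 4001, 4002 and 4007 and 398 in the WT mouse, so its RNA level does not separate the genotypes. LBR-null mouse 4001 stood apart. Its 6 skeletal muscle markers summed to 5593 normalized counts, where mouse 4002 had 314, mouse 4007 had 396 and the WT mouse 206. Ttn, Ckm and Acta1 carried this sum (4758, 579 and 191 in mouse 4001), while Myh4, Mylpf and Tnnt3 were lower in mouse 4001 than in the other LBR-null mice. The 2 libraries of mouse 4001 differed more than the pairs of the other mice (a chi-square per gene of 16.0, against 2.84 for mouse 4007 and 2.59 for mouse 4009). The main counts over Hox genes and the cluster sums are therefore given with and without it. The labels give no sex. Xist averaged 5785, 65.3 and 9940 in mice 4001, 4002 and 4007 and 35.5 in the WT mouse, and Ddx3y 141, 1516, 44.3 and 1284 in the same order. Mouse 4002 went with the WT mouse in both, and mice 4001 and 4007 did not. By these sex-linked genes mouse 4002 alone matched the WT mouse, so sex and genotype cannot be told apart for mice 4001 and 4007.

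The WT kidney expressed a broad central part of the Hox code. Levels of different genes were compared per kb of exon, using gene lengths of the GENCODE vM1 models. Hoxd8 was the highest gene in both genotypes, at 1540 normalized counts per kb in the WT mouse and 1697 in the LBR-null mean, and Hoxd9 was next, at 739 and 1027. The WT order went on with Hoxb9 (620 per kb), Hoxb6 (581), Hoxb8 (479), Hoxa9 (391), Hoxd4 (390) and Hoxa5 (361). Hoxd8 and Hoxd9 together held 27.5% of all Hox signal per kb in the WT mouse, 27.9% in both LBR-null mice 4002 and 4007, and 38.0% in mouse 4001. By cluster, Hoxd genes held 37.6% of the WT signal per kb, Hoxb 33.2%, Hoxa 18.3% and Hoxc 10.9%.

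The genes of groups 12 and 13 were low or silent. Hoxb13, known for its role in prostate and tail development, had 0 reads in all 7 libraries. Hoxa13, which patterns the distal limb and genital tract, had 1 read in all, in the second library of mouse 4007. Its Hoxd counterpart Hoxd13 had 1 read in that library and 1 in the first WT library. Hoxd12 had 1, 2, 1, 3 and 4 reads in the LBR-null libraries (mouse 4001 first, then 4002 and 4007) and 1 and 0 in the WT libraries. At the opposite ends Hoxb1 and Hoxd1 were low as well, at 2.69 and 1.75 normalized counts per kb in the WT mouse, whereas Hoxc4, the first gene of the Hoxc cluster, was at 36.8.

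**Figure D1:**
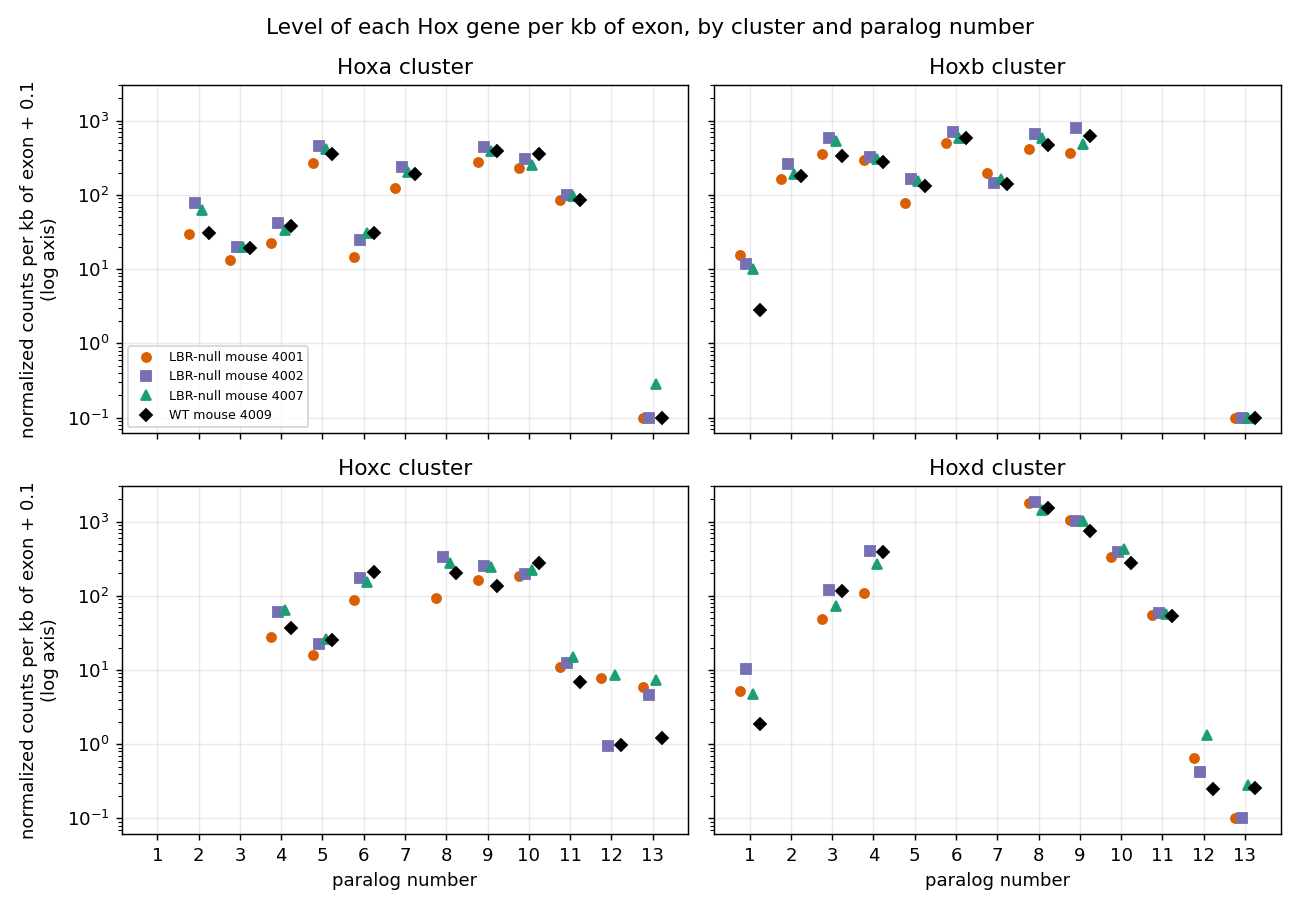
Normalized counts per kb of exon, plus 0.1, on a log axis, against paralog number for the 4 Hox clusters, with 1 point per mouse (the mean of its libraries) for 38 of the 39 genes. The 8 highest genes of the WT mouse belong to groups 4 to 9, led by Hoxd8 at 1540 per kb, and Hoxb1, Hoxd1 and the genes of groups 12 and 13 are low.

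Sequences just upstream of the start are shown for a pair of abundant genes (Hoxd8 and Hoxb8) and a pair of low ones whose levels were higher in LBR-null kidneys (Hoxb1 and Hoxd1), because CpG density is a property by which the study sorted genes. They are the 250 bases before the annotated start, 5′ to 3′ on the strand of the gene, from RefSeq on GRCm38.p6, and capitals mark CpG.
Hoxd8, chr2:74704365-74704614, plus strand: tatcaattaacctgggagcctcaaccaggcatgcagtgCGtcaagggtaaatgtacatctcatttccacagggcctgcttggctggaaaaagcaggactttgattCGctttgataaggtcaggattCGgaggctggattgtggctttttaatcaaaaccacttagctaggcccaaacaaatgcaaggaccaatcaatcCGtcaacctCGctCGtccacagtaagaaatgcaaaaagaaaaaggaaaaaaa
Hoxb8, chr11:96281655-96281904, plus strand: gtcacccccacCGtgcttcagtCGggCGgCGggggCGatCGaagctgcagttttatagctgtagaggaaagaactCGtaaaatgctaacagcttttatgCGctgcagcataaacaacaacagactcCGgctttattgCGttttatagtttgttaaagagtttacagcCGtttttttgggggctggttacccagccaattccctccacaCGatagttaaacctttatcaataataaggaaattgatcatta
Hoxb1, chr11:96365508-96365757, plus strand: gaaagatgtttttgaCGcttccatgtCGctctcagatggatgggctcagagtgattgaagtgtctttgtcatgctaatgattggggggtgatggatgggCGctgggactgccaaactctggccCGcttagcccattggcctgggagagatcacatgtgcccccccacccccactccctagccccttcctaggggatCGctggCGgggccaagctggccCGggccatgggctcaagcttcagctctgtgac
Hoxd1, chr2:74762730-74762979, plus strand: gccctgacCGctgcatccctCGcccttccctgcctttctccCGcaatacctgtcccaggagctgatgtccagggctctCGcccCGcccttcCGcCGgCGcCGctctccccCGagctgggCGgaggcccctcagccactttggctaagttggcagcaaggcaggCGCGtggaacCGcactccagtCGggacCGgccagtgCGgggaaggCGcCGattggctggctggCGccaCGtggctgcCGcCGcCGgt
The 4 stretches hold 6, 12, 7 and 24 CpG in this order, so neither the abundant nor the low pair is uniform. The RefSeq table held 24 windows of 300 bases (250 before and 50 after the start) for 22 of the 39 Hox genes, with 4 to 45 CpG and a median of 14.5, against a median of 7 over all 32851 windows. With GC of at least 50% and CpG at over 0.6 of the number expected from base composition, 11 of the 24 Hox windows (45.8%) and 33.4% of all windows qualified. Of the shown genes Hoxd1 qualified, and Hoxd8, Hoxb8 and Hoxb1 did not. These shares describe short windows and do not say whether a gene has an island nearby.

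The LBR-null means of the 26 Hox genes with a mean of at least 100 normalized counts lay between 0.66 (Hoxc6) and 1.87 (Hoxa2) times the WT level. Of these 26 genes 0 had a 2-fold higher and 0 a 2-fold lower LBR-null mean, where 4.79% and 5.07% of all genes at that level had one, and these counts are not read as a result about Hox genes. Without mouse 4001, Hoxa2 was 2-fold higher (1 of 26, against 3.9% of all genes at that level) and 0 were lower (against 5.43%), and without mouse 4002, 0 were 2-fold higher (against 5.79%) and Hoxd4 was 2-fold lower (1 of 26, against 6.47%). Of the 38 Hox genes above 0 in either group, 6 were 2-fold higher (Hoxa13, Hoxb1, Hoxc12, Hoxc13, Hoxd1 and Hoxd12), or 15.8% against 22.7% of all genes, and 1 was 2-fold lower (Hoxd13), against 8.8%. Of these, Hoxa13, Hoxd12 and Hoxd13 rest on the few reads given above. Without mouse 4001, 8 were 2-fold higher, with Hoxa2 and Hoxc11 added (against 21.7% of all genes), and 0 were 2-fold lower (against 9.07%). With limits of 0.05 on the adjusted p and of 2-fold on the change, limma called 0 of the 34 tested Hox genes and 0 of 17283 genes in all (0%). At an unadjusted p under 0.05 limma had 3 Hox genes higher (Hoxb1, Hoxc13 and Hoxd1), against 10.7% of all genes, and 0 lower, against 8.05%. edgeR and DESeq2 also called 0 Hox genes, though over all genes edgeR called 1 higher and 27 lower (0.162%) and DESeq2 533 and 576 (6.42%), and each had 2 higher at an unadjusted p under 0.05 (Hoxb1 and Hoxc13), against 10.3% of all genes by edgeR and 10.6% by DESeq2. The median log2 fold change was 0.06 over the 34 Hox genes and 0.01 over all tested genes. The fit has 2 residual degrees of freedom and assumes that the lone WT mouse varies as the LBR-null mice do. Its limit of 5 is on a mean over 3 LBR-null mice and 1 WT mouse, so genes high only in LBR-null mice pass more easily. Hoxc13 and Hoxd1 were below 5 in the WT mouse.

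**Figure D2:**
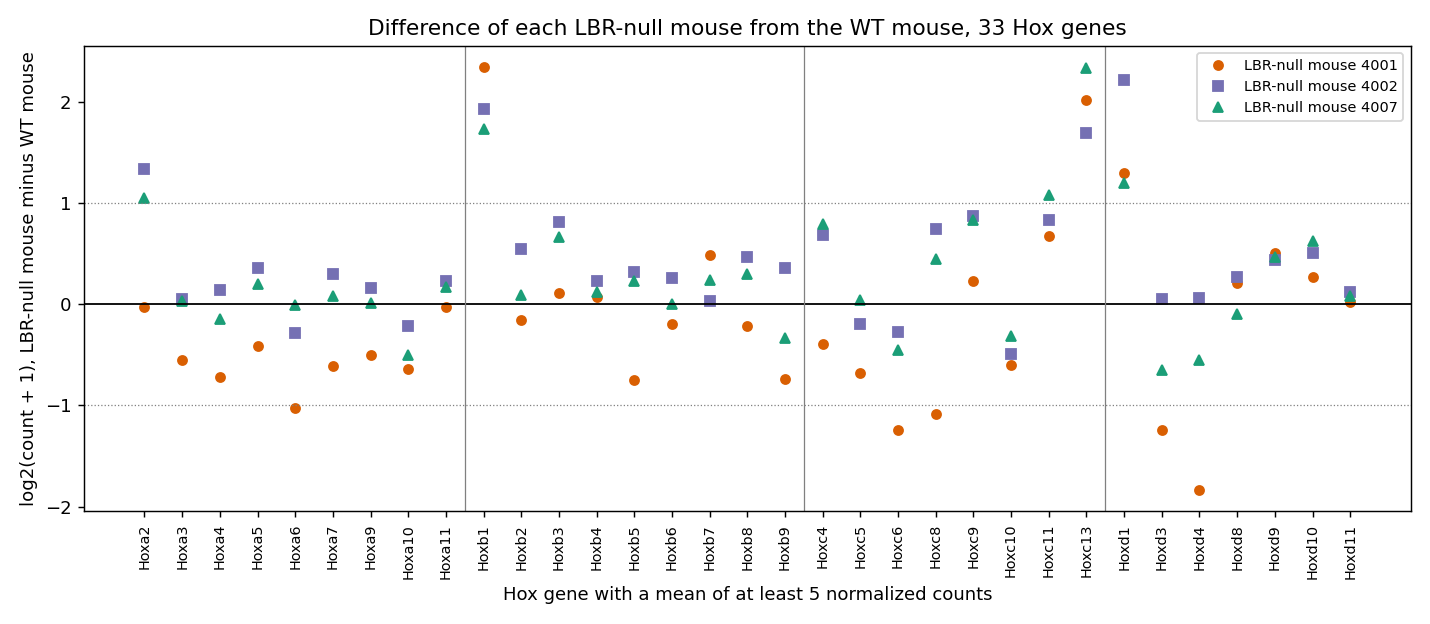
Difference in log2(normalized counts + 1) between each LBR-null mouse and the WT mouse for 33 of the 34 tested Hox genes, in cluster and paralog order, with dotted lines at a 2-fold change. Hoxb1, Hoxc13 and Hoxd1 lie above 1 in all 3 mice, and mouse 4001 lies lowest for most other genes.

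Hoxb1, best known for patterning the hindbrain, had the lowest limma p of the Hox genes (unadjusted p = 0.00685). For it mouse 4001 gave 31.0 and 40.8 normalized counts, mouse 4002 gave 26.7, mouse 4007 gave 29.8 and 16.4, and the WT mouse 7.1 and 5.4. Every LBR-null library lay above both WT libraries, with 154 reads in the 5 LBR-null and 15 in the 2 WT libraries. The log2 fold change was 2.003 (SE 0.51, limma adjusted p = 0.122), and without mouse 4001 it was 1.83 (adjusted p = 0.0702, where the 13 alternatives ran from 0.0702 to 0.351).

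Hoxd1, the group 1 gene of the Hoxd cluster, was measured at 5.7 and 13.3 normalized counts for mouse 4001, at 18.9 for mouse 4002, at 12.1 and 5.5 for mouse 4007, and at 4.7 and 1.8 for the WT mouse. The groups did not overlap, but the lowest LBR-null library (5.5) was close to the higher WT library (4.7). The log2 fold change was 1.57 (SE 0.65, limma adjusted p = 0.266), and mouse 4002 alone differed from the WT mouse by 2.22 on this scale.

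Hoxc13, which hair follicles and nails need for their keratins, was measured at 4.6 and 24.0 normalized counts for mouse 4001, at 11.2 for mouse 4002, at 13.97 and 21.9 for mouse 4007, and at 5.5 and 0 for the WT mouse. Here 1 library of mouse 4001 lay below the higher WT library, so the groups overlapped. The log2 fold change was 2.02 (SE 0.57, limma adjusted p = 0.140), and it was 0.63 from the first library of each mouse and 4.25 from the second, so the size depends on the library. The 1 library of mouse 4002 entered both of these. The second WT library was at 0, so the 4.25 also depends on the 1 count added before taking logs. Hoxc12 had 9, 6, 1, 6 and 13 reads in the LBR-null libraries in the order used for Hoxd12, and 0 and 2 reads in the WT libraries. The 1 read of mouse 4002 lay between the WT libraries. Hoxc11, which acts with Hoxa11 and Hoxd11 in the forming kidney, had 24.1, 20.4, 24.9, 27.01 and 32.8 normalized counts in the LBR-null libraries and 11.8 and 15.4 in the WT libraries. All 5 lay above both WT libraries, and the log2 fold change was 0.86 (SE 0.48, limma adjusted p = 0.388).

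Among genes in this low range, 2-fold higher ones outnumbered 2-fold lower ones, which the choice of the range itself favours. Of 5 Hox genes with a mean of at least 5 and under 50, 3 were 2-fold higher (Hoxb1, Hoxc13 and Hoxd1), and so were 41.7% of the 4225 genes in that range, while 10.7% of them and 0 of the 5 Hox genes were 2-fold lower. Without mouse 4001, 4 of the 5 were 2-fold higher (Hoxc11 added), against 41.1% of genes in that range. The mean that sets this range is over 3 LBR-null mice and 1 WT mouse. Genes high only in LBR-null mice therefore enter it more easily than genes high only in the WT mouse. Hoxc13 and Hoxd1, at 2.76 and 3.27 in the WT mouse, passed the limit of 5 through the LBR-null mice. For this reason, and with so few members, the Hox share is not read against this background.

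**Figure D3:**
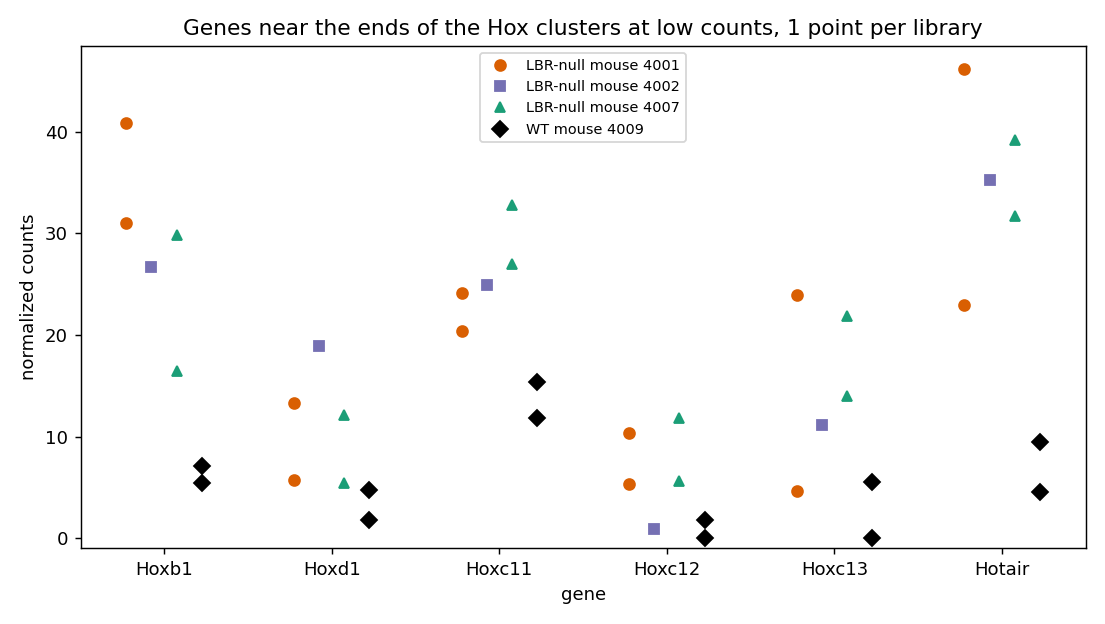
Normalized counts of Hoxb1, Hoxd1, Hoxc11, Hoxc12, Hoxc13 and the noncoding RNA Hotair, with 1 point per library and a symbol per mouse. All LBR-null points of Hoxb1, Hoxd1, Hoxc11 and Hotair lie above both WT points, and the points of Hoxc12 and Hoxc13 overlap.

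Among all 34 tested Hox genes, the 5 LBR-null libraries lay above both WT libraries for 6 (Hoxb1, Hoxc9, Hoxc11, Hoxd1, Hoxd9 and Hoxd10), or 17.6% against 25.5% of all tested genes. They lay below for 3 (Hoxa10, Hoxc6 and Hoxc10), or 8.82% against 25.7%. The first count rests on mouse 4001, since without it 18 of the 34 genes lay above both WT libraries, against 35.8% of all tested genes.

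Hoxd9, one of the 2 most abundant Hox genes, was at 2432 and 2162 normalized counts for mouse 4001, at 2192 for mouse 4002, at 2189 and 2288 for mouse 4007, and at 1661 and 1565 for the WT mouse. The LBR-null mice were close together (2242 ± 52.7, SD, n = 3) and all above the WT mouse (1613). The log2 fold change was 0.47 (SE 0.23, limma adjusted p = 0.325). Its neighbour Hoxd10, used in lumbar segments and limbs, averaged 1013 ± 123 (SD, n = 3) in the LBR-null mice and 729 in the WT mouse (log2 fold change 0.47, SE 0.25, limma adjusted p = 0.379). Hoxd8, which lies on the other side of Hoxd9, was at 5173 and 4623 for mouse 4001, at 5111 for mouse 4002, at 3922 and 4005 for mouse 4007, and at 4190 and 4262 for the WT mouse. Mouse 4007 was below the WT mouse and the others above it, so Hoxd8 did not follow Hoxd9. Hoxd11, the next gene beyond Hoxd10, was at 309 ± 10.8 (SD, n = 3) against 293. In the Hoxc cluster, Hoxc9 averaged 531 ± 122 (SD, n = 3) against 332 (log2 fold change 0.65, SE 0.34, limma adjusted p = 0.360), and its LBR-null libraries ran from 365 to 623 against 341 and 324 in the WT libraries.

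The genes that were lower in every LBR-null library were Hoxa10, Hoxc10 and Hoxc6. Their paralog groups did not move together, since Hoxd10 was higher in every LBR-null library and Hoxa6 and Hoxb6 overlapped. Hoxa10, which patterns the lumbar region and the renal stroma, was at 933.5 and 842 normalized counts for mouse 4001, at 1191 for mouse 4002, at 992 and 958 for mouse 4007, and at 1345 and 1418 for the WT mouse (log2 fold change -0.45, SE 0.26, limma adjusted p = 0.411). Mouse 4002 alone differed from the WT mouse by -0.21 on this scale. Hoxc10 averaged 387 ± 40.1 (SD, n = 3) against 535 (log2 fold change -0.47, SE 0.27, limma adjusted p = 0.395). Hoxc6 averaged 221, 435 and 385 in mice 4001, 4002 and 4007 and 526 in the WT mouse (log2 fold change -0.66, SE 0.42, limma adjusted p = 0.453). Without mouse 4001 its log2 fold change was -0.36. In a whole kidney, fewer cells of a type and less RNA per cell cannot be told apart. Markers of other cells differed in level between the genotypes as well. All 5 LBR-null libraries lay above the WT libraries for 25.5% of all tested genes and below for 25.7%. By this measure 5 of 5 urothelium and 5 of 5 podocyte markers lay below, as did 5 of 7 adipocyte markers and 5 of 8 stroma and smooth muscle markers, while 6 of 8 neutrophil markers lay above. Of 8 proximal tubule markers 5 lay below and 3 above. In mice 4001, 4002 and 4007, the urothelium markers summed to 387, 707 and 460 normalized counts against 1118 in the WT mouse, and the neutrophil markers to 1094, 399 and 2553 against 81.9. The adipocyte sums (7732, 6702 and 5214 against 5858) lay on both sides of the WT value and were nearly all Fabp4 (7554, 6654 and 5147 against 4998), while Ucp1 was at 52.7, 9.46 and 11.9 against 375. The proximal tubule sums were 176658, 133068 and 133614 against 178986. Among single markers, the stromal collagen gene Col1a1 was at 1776, 1016 and 767 against 6661, and the proximal tubule transporter genes Slc22a6 at 363, 552 and 313 against 7282 and Slc5a12 at 13741, 7742 and 13546 against 4580. Their part in the Hox differences was not tested.

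Summed over a cluster, the genotypes differed by less than the spread between LBR-null mice in all 4 clusters. The Hoxd sum was 8945, 10414 and 8755 normalized counts in mice 4001, 4002 and 4007 and 8536 in the WT mouse, with a log2 ratio of 0.13 ± 0.14 (SD, n = 3). The Hoxb sum was 7006, 10322 and 8644 against 7774 (0.16 ± 0.28), and the Hoxa sum 3194, 4999 and 4399 against 4553 (-0.12 ± 0.33). Hoxc genes summed to 1343, 2452 and 2338 against 2042 (0.00 ± 0.48). Without mouse 4001 the Hoxa ratio turned to 0.05, and the Hoxb, Hoxc and Hoxd ratios were 0.29, 0.23 and 0.17. Without mouse 4002 the Hoxb ratio was 0.0094 and the Hoxc ratio -0.15, the Hoxa ratio fell further and the Hoxd ratio shrank. By paralog number, groups 2 to 11 had LBR-null sums between 0.909 and 1.22 times the WT sum. Group 12 summed to 7.65 ± 5.30 (SD, n = 3) against 1.30, and group 13 to 14.8 ± 3.85 (SD, n = 3) against 3.15, most of which was Hoxc13.

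**Figure D4:**
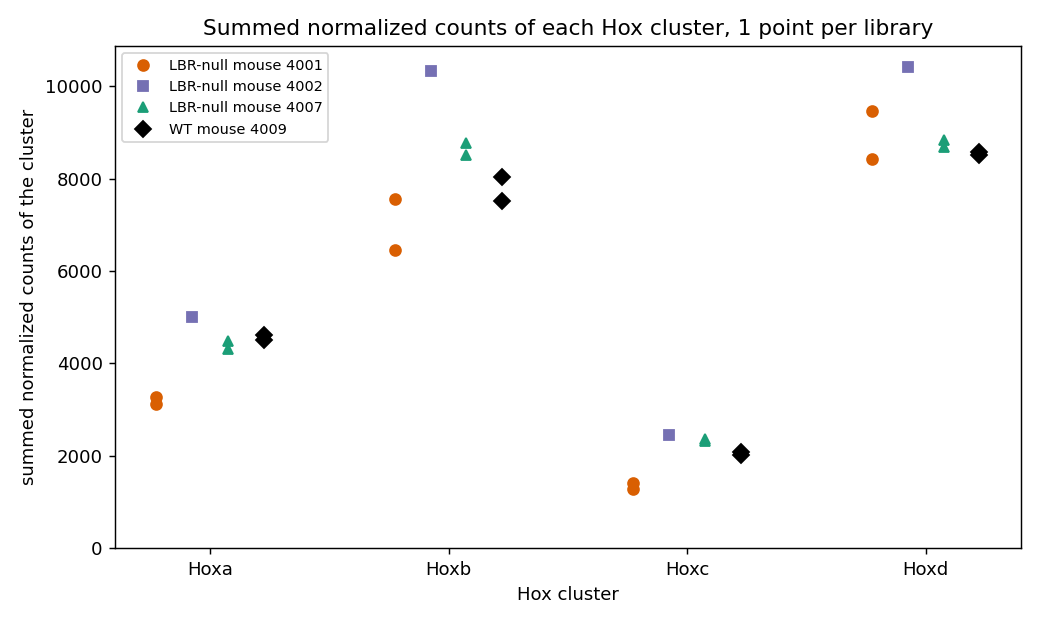
Summed normalized counts of the members of each Hox cluster, with 1 point per library and a symbol per mouse. The WT libraries lie within the range of the LBR-null libraries in every cluster, and the mean of mouse 4001 is the lowest of the 4 mice for Hoxa, Hoxb and Hoxc.

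In Hox genes, mouse 4001 differed from the other LBR-null mice by more than those mice differed from the WT mouse. Both libraries of mouse 4001 lay below the other 3 LBR-null libraries for 23 of the 34 tested Hox genes (67.6%), against 26.4% of all tested genes. They lay above for 2 (Hoxb1 and Hoxb7), or 5.88%, against 28% of all tested genes. By cluster this was 7 of 10 Hoxa, 6 of 9 Hoxb, 7 of 8 Hoxc and 3 of 7 Hoxd genes. The median absolute log2 difference over the 34 genes was 0.65 between mice 4001 and 4002, 0.52 between 4001 and 4007, and 0.21 between 4002 and 4007. Against the WT mouse it was 0.53, 0.31 and 0.30 for mice 4001, 4002 and 4007. Between libraries of the same mouse the median over the 34 genes was 0.23 for mouse 4001, 0.08 for mouse 4007 and 0.10 for the WT mouse. Over all tested genes the medians between mice were 0.41, 0.34 and 0.24 between LBR-null mice and 0.52, 0.37 and 0.47 against the WT mouse, so mouse 4007 was there farther from the WT mouse than from mouse 4001.

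Hoxc8 and Hoxd4 differed most. Hoxc8, which patterns thoracic segments, was at 249.2 and 185 normalized counts for mouse 4001, at 775 for mouse 4002, at 633 and 629.8 for mouse 4007, and at 451 and 474 for the WT mouse. The mean of the other LBR-null mice was 3.24 times that of mouse 4001. Hoxd4 was at 282 and 276 for mouse 4001, at 1041 for mouse 4002, at 671 and 687 for mouse 4007, and at 1001 and 997 for the WT mouse, and its ratio was 3.08. Exons of Hoxd4 and Hoxd3 overlap on the same strand over 67.4% of the exon bases of Hoxd4, so the pair (Hoxd3 ratio 1.99) may share reads. Hoxa2, a gene of the hindbrain and neural crest, and Hoxc4 followed with ratios of 2.37 and 2.22. At the other end, Hoxd8 (0.93), Hoxd9 (0.96), Hoxd11 (1.06), Hoxb4 (1.08) and Hoxa11 (1.18) hardly differed between these mice. Hoxb7, the ureteric bud gene, was higher in mouse 4001, at 886 and 733 normalized counts against 589, 661 and 698 in the other LBR-null libraries and 558 and 593 in the WT libraries. Its exons overlap those of Hoxb8 on the same strand over 26.2% of their length, and Hoxb8 differed the other way (a ratio of 1.52).

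**Figure D5:**
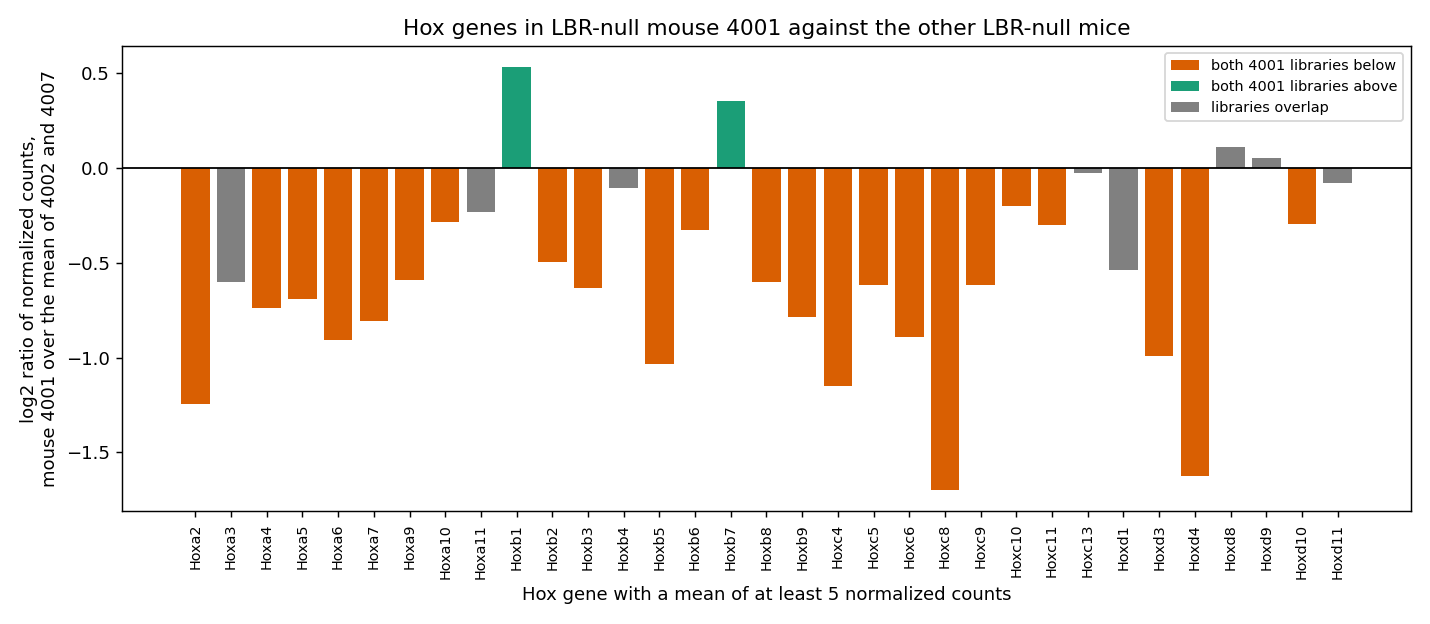
Log2 ratio of normalized counts in LBR-null mouse 4001 over the mean of LBR-null mice 4002 and 4007 for 33 of the 34 tested Hox genes, coloured by whether both 4001 libraries lie below, above or among the others. There are 23 genes below, with Hoxc8 and Hoxd4 lowest, and Hoxb1 and Hoxb7 are above.

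Other values moved with mouse 4001. Beside its skeletal muscle markers, the 5 podocyte markers summed to 9316 normalized counts for mouse 4001, 17178 for mouse 4002, 18106 for mouse 4007 and 22546 for the WT mouse. The 18 kidney development genes summed to 5872, 10906, 8930 and 8910 in the same order. Pax8, Pax2 and Wt1 were lowest in mouse 4001 (1939, 448 and 474), whereas Osr1, Ret, Gfra1, Lhx1 and Cited1 were highest in it among the LBR-null mice. The 8 stroma and smooth muscle markers summed to 26212, 13734, 16653 and 31435. Col3a1 and Dcn carried the stroma sum of mouse 4001 (8290 and 8777), while Pdgfrb, Pdgfra and Myh11 were lower in it than in the other LBR-null mice. The sum of the 5 thick ascending limb markers was highest in mouse 4001, at 140733 against 101841, 62662 and 75612, although Ptger3 was lower there than in mouse 4002 (1238 against 1802). Of these lists, the stroma list alone had a marker (1 of 8) at 0 in all 7 libraries. The part of these differences in the Hox levels was not tested.

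Mice 4002 and 4007 were the closest pair of LBR-null mice (median absolute log2 difference 0.21 over Hox genes and 0.24 over all tested genes). A fit without mouse 4001 takes its spread from this pair alone, so its p-values can be too small. With this limit, mouse 4001 bore on the comparison of genotypes. Without it, limma had 9 Hox genes higher at an unadjusted p under 0.05 (Hoxa2, Hoxb1, Hoxb3, Hoxc4, Hoxc8, Hoxc9, Hoxc13, Hoxd1 and Hoxd10), against 15% of all genes. Of these 0 passed the adjusted limit with a 2-fold change, against 6.76% of all genes in the same fit, and the lowest adjusted p by limma was 0.0525, for Hoxc9 (log2 fold change 0.85), whose 13 alternatives ran from 0.0525 to 0.786. Hoxa2 was at 68.9 and 75.4 normalized counts for mouse 4001, at 188 for mouse 4002, at 156 and 151 for mouse 4007, and at 79.5 and 67.8 for the WT mouse, so mouse 4001 sat with the WT mouse. Hoxb3, a gene of the hindbrain and neck, was at 1182 and 989 for mouse 4001, at 1768 for mouse 4002, at 1610.2 and 1580.5 for mouse 4007, and at 1052 and 958 for the WT mouse, again with mouse 4001 near the WT level. In Hoxb3, 37.9% of the exon bases lie opposite Hoxb3os, and whether reads were counted by strand is not given in the sources used here. Taken mouse by mouse, 12 (4001), 29 (4002) and 23 (4007) of the 34 genes were higher than in the WT mouse, against 50.7%, 51% and 50.6% of all tested genes, with Hox medians of -0.22, 0.29 and 0.11 on the log2 scale. Without mouse 4002, the LBR-null libraries lay below both WT libraries for 6 Hox genes (29.6% of all tested genes), and without mouse 4007 for 5 (28%).

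Of 13 noncoding rows of the clusters (antisense RNAs, Hotair, Hottip and microRNA genes) 10 were tested, of which 1 had a higher level and 1 a lower level before adjustment (p under 0.05), counts near the shares of all genes (10.7% and 8.05%). Hotair, a long noncoding RNA of the Hoxc cluster that lies between Hoxc11 and Hoxc12, was at 23.0 and 46.1 normalized counts for mouse 4001, at 35.3 for mouse 4002, at 31.7 and 39.2 for mouse 4007, and at 9.4 and 4.5 for the WT mouse. The LBR-null mice averaged 35.1 ± 0.46 (SD, n = 3) and did not overlap the WT mouse (7.0), and the log2 fold change was 2.18 (SE 0.45, limma adjusted p = 0.107). It was 1.545 from the first library of each mouse and 2.89 from the second, with the 1 library of mouse 4002 in both. The small SD of the mouse means therefore does not carry over to single libraries. Over 13 alternatives the adjusted p ran from 0.0201 (DESeq2) to 0.340. Hoxb5os, an antisense RNA of the Hoxb cluster, was lower in every LBR-null library, at 253 and 237 for mouse 4001, 348 for mouse 4002, and 208 and 234 for mouse 4007, against 607 and 671 (log2 fold change -1.26, SE 0.34, limma adjusted p = 0.131). Its alternatives ran from an adjusted p of 0.0336 (DESeq2) to 0.425. The gene Hoxb5 itself was at 371 ± 133 (SD, n = 3) against 369. Hottip, the neighbour of Hoxa13, had 1 read in all.

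The partners and regulators of Hox genes were read from lists, whose counts stand beside the background given above (by limma, 10.7% of all genes in the higher and 8.05% in the lower direction before adjustment, and 6.42% called by DESeq2). No list is read as standing apart from these shares. Of 9 TALE cofactors, the homeodomain proteins that bind DNA with Hox proteins, limma, edgeR and DESeq2 each called 0, and 1 was lower at an unadjusted p under 0.05. This was Pknox2, at 73.5, 83.4 and 77.4 normalized counts in mice 4001, 4002 and 4007 and 171 in the WT mouse (log2 fold change -1.12, limma adjusted p = 0.16). Of 21 Polycomb genes, limma and edgeR called 0 and DESeq2 called 2 (Ezh1 and Cbx7, both higher), and 3 had a higher level at an unadjusted p under 0.05 by limma. Ezh1, a catalytic subunit of Polycomb repressive complex 2, averaged 3268 ± 514 (SD, n = 3) against 1568, and Cbx7 and Cbx2, subunits of complex 1 that read its mark, averaged 1901 ± 686 against 693 and 313 ± 78.1 against 139 (n = 3). Ezh2, the other catalytic subunit, had a log2 fold change of 0.01 (SE 0.32).

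Of 12 Trithorax genes and demethylases, which oppose Polycomb, each of the tools called 0, and 1 had a higher level at an unadjusted p under 0.05 by limma. This was Kdm6a, at 1414, 753 and 1403 normalized counts in mice 4001, 4002 and 4007 and 528 in the WT mouse, highest in the mice with high Xist. Of 14 tested Cdx and retinoid genes, limma and edgeR called 0 and DESeq2 called 2 (Cdx2 and Aldh1a3), the same genes that limma had at an unadjusted p under 0.05. Cdx2, a caudal homeobox factor that activates Hox genes in the embryo, averaged 29.9 ± 3.94 (SD, n = 3) against 3.38 (log2 fold change 2.81, SE 0.49, limma adjusted p = 0.0938). Aldh1a3, which makes retinoic acid, was at 100.3, 540.0 and 290.2 in mice 4001, 4002 and 4007 and 2253 in the WT mouse. Cyp26b1, which degrades it, was at 50.1, 249.3 and 408 against 57.8, with mouse 4001 near the WT level. Of 17 tested kidney development genes, limma and edgeR called 0 and DESeq2 called 1 (Wnt9b), and limma had 2 at an unadjusted p under 0.05, both at a lower level: Wnt9b, a ureteric signal that induces nephrons (69.1 ± 54.9, SD, n = 3, against 395), and Itga8 (554 ± 246 against 1449). Cited1 (46.3 ± 26.9 against 109) and Gfra1 (163 ± 44.8 against 81.0, n = 3) were 2-fold apart without reaching that p.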

How the data were processed

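RNA-seq of 7 kidney libraries from 4 mice was used. The authors used STAR 2.6.0 with the mm9 genome, and what they deposited is a signal per gene symbol (read counts over the size factor that DESeq2 1.25.1 gave a library). The counting program, annotation and use of strand are not given in the sources used here. Whole reads were recovered from 100% of values, within 0.01 read. Libraries were averaged within a mouse. limma 3.58.1 (R 4.3.3, eBayes with trend) was fitted to log2(normalized counts + 1) of mouse means where the mean over mice was 5 or more (17283 genes, all of which entered the Benjamini-Hochberg adjustment). edgeR 4.0.16 and DESeq2 1.42.0 on the recovered reads summed per mouse were alternatives. A run of the fits on simulated counts checked only the direction and size of planted changes, and no result here rests on it. A gene was 2-fold apart when group means of normalized counts were, among genes above 0 in either group. Exon lengths and overlaps came from GENCODE vM1 (mm9), which may not be the authors' annotation. Every Hox gene was a member, those with a mean of at least 5 could be named with values, and those below with reads. From related lists, tested genes at an unadjusted p under 0.05 or 2-fold apart could be named, at most 4 a list. Ezh2, single markers of other cells and the genes named for carrying or opposing the sum of a list were chosen after their values were seen. Members and lists were chosen with earlier results of these data known. P-values measure the spread between these mice. The clusters lie on mouse chromosomes 6 (a), 11 (b), 15 (c) and 2 (d). Values of 1 tested Hox gene are not reported here, and counts over all members include it.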

Additional observations from a re-analysis of the deposited data

Results flagged for a closer look

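In the 5 LBR-null libraries, the lowest or highest value of each of the 34 tested Hox genes and of the 4 cluster sums was compared with the others by Dixon's test. Of 38 such groups 1 stood out, and chance flags about 1 in 20. Hoxa11, one of the group 11 genes needed for the kidney to form, was at 188 normalized counts in the second library of mouse 4001, against 253 to 272 in the other LBR-null libraries. The first library of the same mouse gave 265. Libraries of the same mouse are not independent values, and 38.6% of the exon bases of Hoxa11 lie opposite Hoxa11as.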

How the results depend on the processing

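Under every alternative run, edgeR and DESeq2 included, 0 Hox genes were called, while over all genes limma called 505 higher and 658 lower without mouse 4001 and 338 and 287 without mouse 4002. Higher Hox genes at an unadjusted p under 0.05 by limma numbered 3 in the main fit, against 10.7% of all genes. They numbered 1 with a mean of at least 20 (7.23% of all genes) and 1 with the first library of each mouse (8.99%). Without mouse 4001, 4002 and 4007 they numbered 9, 3 and 2, against 15%, 12.2% and 6.12% of all genes. Lower ones numbered 0, 2 (Hoxd3 and Hoxd4) and 0 in the same order, against 13.4%, 8.6% and 4.29%. The 2-fold higher count of 6 became 3 with 5 normalized counts added or with a mean of at least 5, 8 with the second library of each mouse, and 5 to 8 without 1 LBR-null mouse (8 without mouse 4001), and the 2-fold lower count of 1 became 0 in both, with the second library of each mouse, and without mouse 4001 (0 to 1 over the mice). Over all genes, 21.7%, 23.4% and 20.1% were 2-fold higher without mouse 4001, 4002 and 4007, and 9.07%, 9.98% and 9.45% were 2-fold lower. With a mean of at least 100, both 2-fold counts (0) were 0 to 1 without 1 LBR-null mouse, alternatives added after the data were seen. Counts of Hox genes above both WT libraries ran from 7 to 18 and below from 3 to 6 without 1 LBR-null mouse, likewise added. Over all tested genes the share above rose from 25.5% to 35.8% without mouse 4001, where the 18 were counted. The share below rose from 25.7% to 29.6% without mouse 4002, where the 6 were counted. For the 7 above and the 3 below no share over all genes is given here, so these ranges are not read as a result about Hox genes. The median over Hox genes was -0.04 to 0.19 without 1 LBR-null mouse. Of the 34 tested Hox genes, 9 changed direction when 1 LBR-null mouse was left out (Hoxa3, Hoxa5, Hoxa7, Hoxa9, Hoxb2, Hoxb5, Hoxb6, Hoxb9 and Hoxc8). Genes whose groups do not overlap could not do so by construction. Hotair passed the limits without mouse 4001 (adjusted p = 0.0388) and by DESeq2, as did Hoxb5os by DESeq2. Fits without mouse 4001 take their spread from mice 4002 and 4007 alone, the closest LBR-null pair, so their p-values can be too small. The cause of these shifts was not tested. No paired analysis was possible because the replicate numbers in the labels name libraries of 1 mouse. With 1 WT mouse, differences among WT mice are not measured, and Hox genes below about 50 normalized counts rest on few reads.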
